A study of Mus musculus with 9 samples.

Results

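The levels of 9 genes were followed in whole mouse lung after ventilator-induced lung injury (VILI): the 8 CC chemokine ligands Ccl2, Ccl7, Ccl3, Ccl4, Ccl6, Ccl9, Ccl5 and Ccl17, and the receptor Ccr2. They were taken by name from the 27203 gene IDs of the deposited table. CC chemokines are small secreted proteins that leukocytes follow along a gradient by means of G protein-coupled receptors. Ccl2 and Ccl7 bind Ccr2, which classical monocytes carry and need to leave the bone marrow and enter inflamed tissue. Ccl3, Ccl4 and Ccl5 act on monocytes, macrophages and T cells, the rodent chemokines Ccl6 and Ccl9 act through Ccr1, and Ccl17 acts through Ccr4 on T cells.

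All mice were male C57BL/6 animals aged 6 to 8 weeks with no genetic change, and all were intubated under ketamine and xylazine. The 3 control mice were not ventilated. The 3 VILI 0 hours and 3 VILI 6 hours mice received 4 hours of high-stretch ventilation at a tidal volume of 20 ml/kg with pancuronium as muscle relaxant, and their lungs were taken 0 or 6 hours after ventilation ended. Controls therefore differed from both VILI groups in ventilation together with what came with it. For the sequenced controls the methods do not state a muscle relaxant, the length of anaesthesia or the time of sampling. Effects of these cannot be told apart from that of ventilation. No low-stretch group was sequenced, and each library came from 1 mouse. RNA came from whole lung, so fewer cells of a type and less RNA per cell cannot be told apart. Values are FPKM, fragments scaled to transcript length and to the size of the library, so levels of different genes may be compared. Fold changes are differences of log2(FPKM + 0.1), and a gene is called here at an unadjusted limma P under 0.05, the threshold of the study, with the Benjamini-Hochberg adjusted p over all 19378 genes tested printed beside it. A value given as called thus passed the unadjusted threshold, whatever its adjusted p.

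Libraries of VILI groups differed from controls, and from each other, in their leukocyte genes. The epithelial and endothelial markers Sftpc, Sftpb, Ager, Scgb1a1, Cldn5 and Cdh5 were detected in all 9 libraries, and 0 of the 6 were called in any comparison. The summed level of 7 neutrophil markers was 46.5 to 54.1 FPKM in controls, 550.4 to 1006 FPKM at VILI 0 hours and 453.5 to 1915 FPKM at VILI 6 hours, and all 7 were called higher at both times. Ly6g, which defines neutrophils in the mouse, was listed at 0 in some control libraries. VILI 6 hours replicate 3 had the highest neutrophil sum and was the highest of the 9 libraries for 7 of the 9 chemokine and receptor genes, against 13.9% of all genes. VILI 6 hours replicate 1 had the lowest neutrophil sum of the VILI libraries and was the highest of the 9 libraries for 0 of the 9 genes but for 19.4% of all genes, and VILI 0 hours replicate 2 stood apart as described with Ccr2. Without VILI 6 hours replicate 1, 4 of the 9 genes, in place of 1, passed after adjustment (adjusted p under 0.05) in the comparison of VILI 6 hours with control. The share of all genes that passed without that library was not counted, so this gain cannot be set against that of all genes. The median log2 level of the libraries fell by 0.115 at VILI 0 hours and fell by 0.127 at VILI 6 hours against control, a shift that centring the libraries on their medians removes.

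All 9 genes are protein coding, and 7 of the ligands lie on chromosome 11 (GRCm38, GENCODE M21). Ccl2 (chr11:82035571-82037453) and Ccl7 (chr11:82045712-82047525) are 8.26 kb apart on the plus strand. Farther along chromosome 11 come Ccl5 (chr11:83525778-83530518), Ccl9 (chr11:83572919-83578636), Ccl6 (chr11:83587882-83593087) and Ccl3 (chr11:83647844-83649355) on the minus strand, and Ccl4 (chr11:83662584-83664683) on the plus strand. Ccl9 and Ccl6 are 9.25 kb apart, and Ccl3 and Ccl4 are 13.2 kb apart. Ccl17 (chr8:94810453-94812036) and Ccr2 (chr9:124101950-124113557) lie elsewhere. The promoter sequences of the neighbours Ccl6 and Ccl9 are shown because these were the only members called higher than control at both times. RefSeq promoter windows (GRCm38.p6, 250 bases before to 50 after the start site) matched 5 of the 9 genes, namely Ccl3, Ccl6, Ccl9, Ccl17 and Ccr2. The windows of Ccl6 and Ccl9 shared a segment of 40 bases with 36 identical (90%), whereas the best ungapped segment of the other pairs was 10 to 23 bases long. In Ccl6 this segment runs from 25 bases before to 14 bases after the start site, and in Ccl9 from 9 to 48 bases after it, the start base being counted as 0. The first line gives Ccl6 (chr11:83593073-83593337, minus strand) from 250 bases before the start site to the end of the segment, with the bases identical to Ccl9 in capitals. The second gives the first 30 bases of the segment in Ccl9 (chr11:83578598-83578627, minus strand), with the bases identical to Ccl6 in capitals. The third gives the 250 bases before the Ccl9 start site (chr11:83578637-83578886, minus strand), with motif matches in capitals.
Ccl6 promoter: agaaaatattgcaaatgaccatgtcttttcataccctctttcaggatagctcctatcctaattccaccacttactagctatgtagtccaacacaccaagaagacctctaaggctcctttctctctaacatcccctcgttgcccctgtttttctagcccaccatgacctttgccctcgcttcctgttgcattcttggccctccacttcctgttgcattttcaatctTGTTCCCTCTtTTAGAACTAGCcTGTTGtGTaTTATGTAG
Ccl9 segment: TGTTCCCTCTcTTAGAACTAGCaTGTTGgG
Ccl9 promoter: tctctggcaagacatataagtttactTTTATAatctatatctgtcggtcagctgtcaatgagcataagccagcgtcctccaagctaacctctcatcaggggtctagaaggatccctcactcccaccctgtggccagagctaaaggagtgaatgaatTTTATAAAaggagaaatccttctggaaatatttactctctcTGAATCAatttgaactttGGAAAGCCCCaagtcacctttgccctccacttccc

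The windows were searched on both strands for 6 motifs. The Ccl9 window held a match to the kappaB consensus 35 bases before the start site, to the AP-1 motif TGANTCA 53 bases before it and to TATAAA 92 bases before it, which overlaps a match on the other strand. Another TATAAA match on the other strand lay 224 bases before the Ccl9 start site. Of 32851 promoters of this length, 8.46% hold the kappaB consensus, 7.81% the AP-1 motif and 13.6% TATAAA. The Ccl6 window held none of these and matched the ETS motif AGGAAG, which 35.4% of promoters hold, 73 and 47 bases before its start site. Ccl17 matched the STAT motif TTCNNNGAA, held by 8.3% of promoters, 99 bases before its start site, and the ETS motif 57 bases before it. The C/EBP motif TTGCNNAA, held by 10.8% of promoters, was in 0 of the 5 windows. A match is a string of letters and not a measured binding site.

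At VILI 0 hours 2 of the 9 genes, Ccl6 and Ccl9, were called higher than control and 0 lower, where 16.2% of all genes were called, 6.81% higher and 9.35% lower, and 0 of 9 passed at an adjusted p under 0.05 (0.284% of all genes). At VILI 6 hours 5 of 9, namely Ccl2, Ccl7, Ccl6, Ccl9 and Ccl17, were called higher than control and 0 lower, against 8.17% and 12.2% of all genes (20.4% in either direction), and Ccl9 alone passed after adjustment (0.702% of all genes). Between the times 3 of 9, Ccl2, Ccl7 and Ccl9, were called higher at VILI 6 hours than at VILI 0 hours and 0 lower, against 5.06% and 4.94% of all genes (10% in either direction), and 0 passed after adjustment, as for all genes. The median log2 fold change of the 9 was 0.18 at VILI 0 hours, 1.20 at VILI 6 hours and 0.90 between the times, where the median of all genes was -0.07, -0.09 and -0.02. Groups did not overlap, with the VILI group higher, for 3, 6 and 4 of the 9 genes in these comparisons, against 12%, 9.64% and 6.25% of all genes. With the VILI group lower, or VILI 6 hours lower than VILI 0 hours, this held for 0 of the 9 against 21.6%, 15% and 6.28% of all genes. The smallest two-sided p of an exact permutation test is 0.1 at this size, and groups that did not overlap reached it. Both VILI groups were compared with the same 3 controls. The plot of FPKM by library shows each value, and the plot of fold changes shows the fitted differences.

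**Figure D1:**
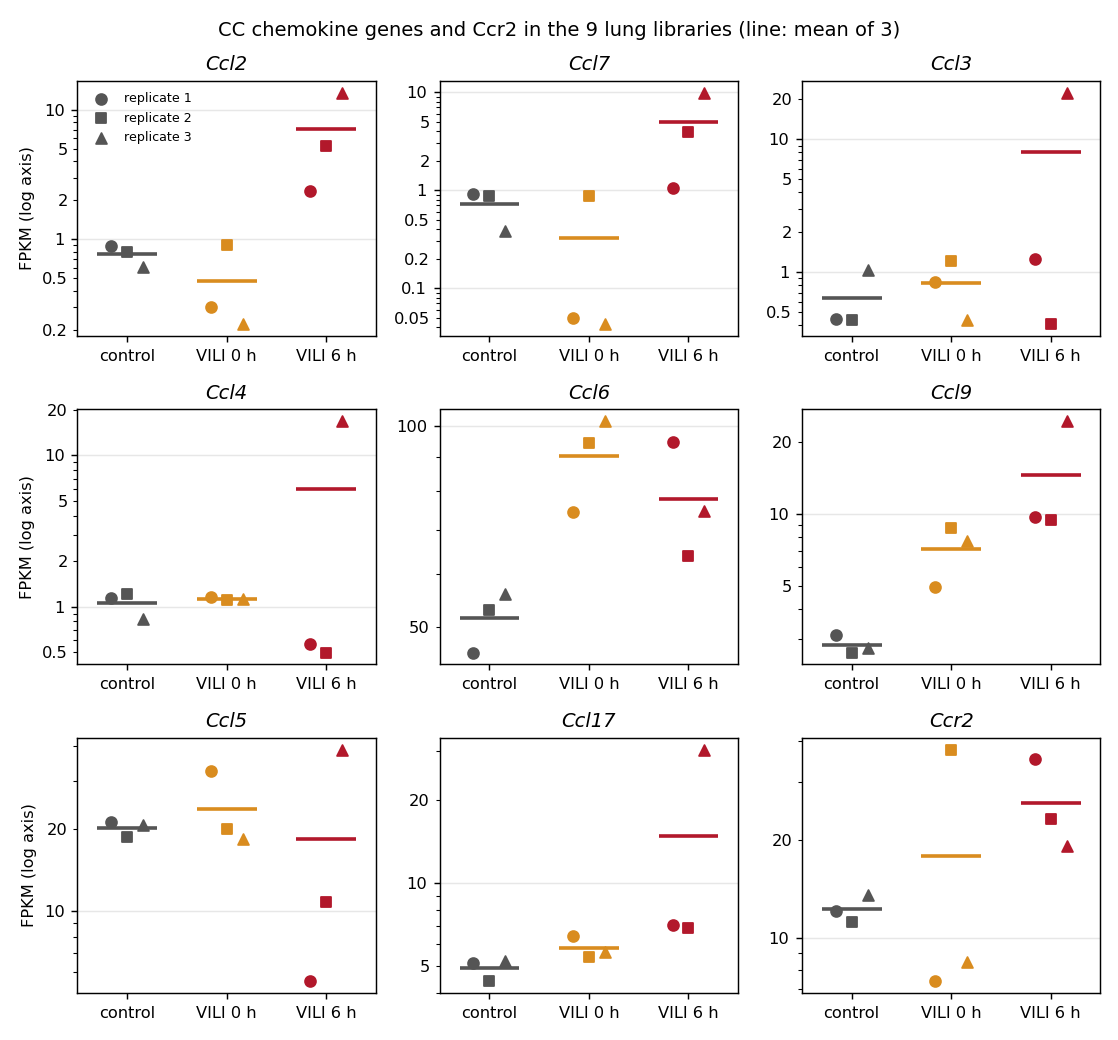
FPKM of the 8 ligands and Ccr2 (log axis, 1 panel a gene) in the 9 libraries by group, 1 symbol a replicate, with a line at the mean of 3. Ccl6, Ccl9 and Ccl17 lie above control in all 6 VILI libraries, and VILI 6 hours replicate 3 (triangle) is the highest library in 7 of the 9 panels.

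**Figure D2:**
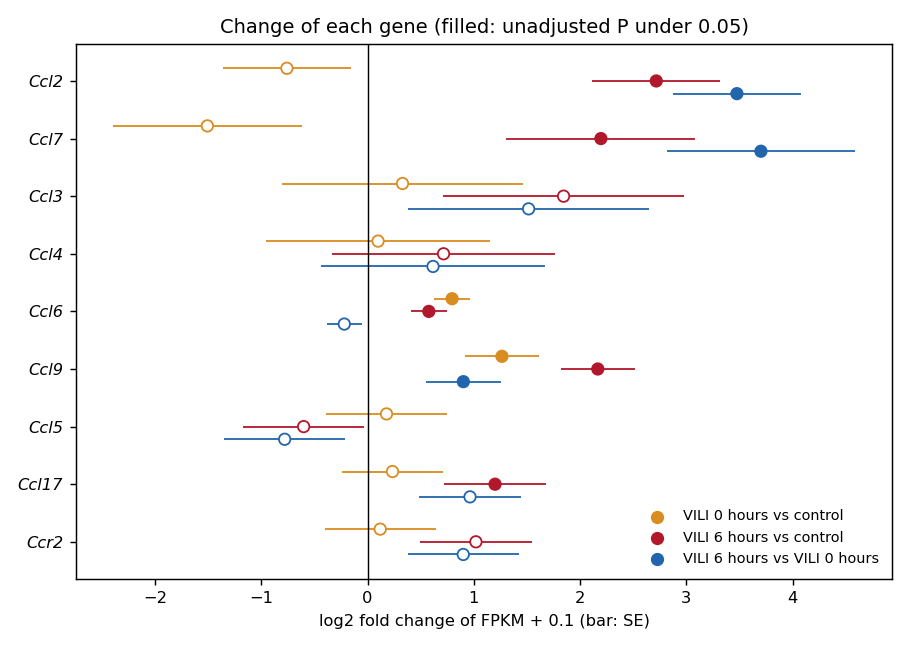
log2 fold change of FPKM + 0.1 for each gene in the 3 comparisons (horizontal axis, bars are the SE of the limma fit). Filled points have an unadjusted P under 0.05, which 2, 5 and 3 of the 9 genes reach.

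Ccl2 and Ccl7, the ligands of Ccr2, were higher 6 hours after ventilation than in control or at its end. Ccl2 was at 0.895, 0.797 and 0.609 FPKM in the controls, 0.302, 0.911 and 0.221 FPKM at VILI 0 hours, and 2.35, 5.27 and 13.6 FPKM at VILI 6 hours. All VILI 6 hours libraries lay above the other 6, and at VILI 0 hours replicates 1 and 3 lay below every control while replicate 2 lay above them. Against control the VILI 6 hours mean was 9.21-fold higher, with a log2 fold change of 2.72 (SE 0.60, adjusted p = 0.0733). Both this change and that without VILI 6 hours replicate 3, the highest library (2.08, adjusted p = 0.154), were called. Against VILI 0 hours the log2 fold change was 3.48 (SE 0.60, adjusted p = 0.144, called), and that of VILI 0 hours against control, -0.76 (SE 0.60, adjusted p = 0.573), was not called.

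Ccl7 had a pattern like that of Ccl2, with a lower mean in each group. Its FPKM was 0.924, 0.871 and 0.382 in the controls, 0.0497, 0.879 and 0.0427 at VILI 0 hours, and 1.06, 3.89 and 9.89 at VILI 6 hours. As for Ccl2, replicates 1 and 3 at VILI 0 hours were below all controls, whereas replicate 2 was within the range of the controls, and the lowest VILI 6 hours library was close to the highest control. The log2 fold change at VILI 6 hours against control was 2.20 (SE 0.89, adjusted p = 0.213, called). This call was lost without any 1 of the controls, where the value was 1.85 to 2.39, without VILI 6 hours replicate 2 (2.12, adjusted p = 0.393) and without replicate 3 (1.46, adjusted p = 0.488). Against VILI 0 hours it was 3.70 (SE 0.89, adjusted p = 0.252, called), or 1.91 with a pseudocount of 1 FPKM and 4.62 with one of 0.01 FPKM, both called, since 2 of the VILI 0 hours values lie below the 0.1 FPKM added. VILI 0 hours against control gave -1.51 (SE 0.89, adjusted p = 0.443), which was not called, or -2.42 (adjusted p = 0.231, called) without VILI 0 hours replicate 2. The ratio of Ccl2 to Ccl7 was 0.914 to 1.59 in controls, 6.09, 1.04 and 5.18 at VILI 0 hours and 1.36 to 2.22 at VILI 6 hours, so the replicates low in both genes were lower in Ccl7.

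The third ligand of mouse Ccr2, Ccl12, lies outside the 9 genes, and at VILI 0 hours its highest library was also replicate 2. It was at 1.85, 3.48 and 1.27 FPKM in controls, 0.183, 1.99 and 0.221 FPKM at VILI 0 hours and 3.98, 1.62 and 8.77 FPKM at VILI 6 hours. Its log2 fold change was -1.88 (SE 0.81, adjusted p = 0.296) at VILI 0 hours against control and 2.78 (SE 0.81, adjusted p = 0.325) between the times, both called. The call at VILI 0 hours held in 7 of 18 alternatives. It was lost without control replicate 1 or 2, VILI 0 hours replicate 1 or 3 or VILI 6 hours replicate 1, and leaving out a library moved the value between -1.37 and -2.81. At VILI 6 hours Ccl12 overlapped control (0.90, adjusted p = 0.540, not called).

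Ccr2, the receptor of these ligands, varied within the VILI groups more than within control. Its 4 rows summed to 12.2, 11.2 and 13.6 FPKM in controls, 7.40, 37.6 and 8.46 FPKM at VILI 0 hours and 35.2, 23.1 and 19.1 FPKM at VILI 6 hours. All 3 VILI 6 hours libraries lay above control, whereas at VILI 0 hours replicate 2 was the highest of the 9 libraries and replicates 1 and 3 were the lowest. The log2 fold change at VILI 6 hours against control was 1.02 (SE 0.52, adjusted p = 0.295) and was not called. With VILI 0 hours replicate 2 left out of the shared spread it was called (adjusted p = 0.0864). For VILI 0 hours against control it was 0.12 (SE 0.52, adjusted p = 0.933), turning to -0.63 (adjusted p = 0.286, called) without replicate 2, and for VILI 6 hours against VILI 0 hours it was 0.90 (SE 0.52, adjusted p = 0.611), or 1.65 (adjusted p = 0.248, called) without that library. The last difference was 0.48 without VILI 0 hours replicate 1 and 0.58 without replicate 3. The table does not name its rows, and the largest of the 4 Ccr2 rows in each library held 29.9% to 55.7% of the sum.

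Classical monocyte markers, genes of the cells that carry Ccr2, moved in part with it. The summed FPKM of Ly6c2, Vcan, F13a1, Plac8 and Fn1 was 134.9 to 159.6 in controls, 109.6 to 223.7 at VILI 0 hours and 194.9 to 267.0 at VILI 6 hours, and none of the 5 was at 0 in any library. Fn1, also made by fibroblasts, was the largest part of this sum, with means of 88.3, 78.9 and 112.9 FPKM in the 3 groups. The highest sum at VILI 0 hours was again that of replicate 2, where F13a1 was at 33.99 FPKM against 5.58 and 11.5 FPKM in replicates 1 and 3, and Vcan at 10.3 FPKM against 2.81 and 4.61 FPKM. At VILI 6 hours the sum was 242.8, 194.9 and 267.0 FPKM, highest in replicate 3, where Ccr2 was the lowest of that group. In that group Ly6c2, Plac8 and, barely, Vcan were highest in replicate 3, whereas F13a1 and Fn1 were highest in replicate 1, as was Ccr2. Against control 0 of the 5 markers were called at VILI 0 hours and 3 of 5 were called higher at VILI 6 hours. Non-classical monocyte markers summed to 291.0 to 298.4 FPKM in controls, 352.8 to 431.1 FPKM at VILI 0 hours and 254.5 to 446.9 FPKM at VILI 6 hours, with 1 of 6, Pglyrp1, called higher at each time and 1, Eno3, called lower at VILI 6 hours. Pglyrp1, with means of 9.28, 15.2 and 26.2 FPKM in the 3 groups, is also a granule gene of neutrophils. Most of this sum was Ace, which endothelial cells also express, with a mean of 254.6 FPKM in controls. The part of monocyte number in the Ccr2, Ccl2 and Ccl7 values was not tested.

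Ccl6 and Ccl9, rodent chemokines made by myeloid cells, were the members called higher already at the end of ventilation. Ccl6, the most abundant of the 9 genes in every group, was at 45.8, 53.1 and 56.1 FPKM in controls, 74.5, 94.4 and 101.8 FPKM at VILI 0 hours and 94.9, 64.0 and 74.7 FPKM at VILI 6 hours. No VILI library overlapped control. The log2 fold change was 0.80 (SE 0.17, adjusted p = 0.0757) at VILI 0 hours and 0.58 (SE 0.17, adjusted p = 0.123) at VILI 6 hours against control, both called. The VILI groups overlapped each other, and their difference of -0.22 (SE 0.17, adjusted p = 0.703) was not called except without VILI 6 hours replicate 1 (-0.37, adjusted p = 0.189).

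Ccl9 rose at each step and was the member with the smallest adjusted p against control at VILI 6 hours. It was at 3.14, 2.63 and 2.76 FPKM in controls, 4.97, 8.74 and 7.71 FPKM at VILI 0 hours and 9.67, 9.44 and 24.4 FPKM at VILI 6 hours. The 3 groups did not overlap, although VILI 6 hours replicates 1 and 2 were close to the highest VILI 0 hours library. The log2 fold change was 1.27 (SE 0.35, adjusted p = 0.130) at VILI 0 hours and 2.17 (SE 0.35, adjusted p = 0.0311) at VILI 6 hours against control, both called. The latter passed after adjustment with all libraries and held its direction and call in 18 of 18 alternatives, where the adjusted p ran from 0.00407 to 0.152. Between the times it was 0.90 (SE 0.35, adjusted p = 0.443, called), and this call was lost without VILI 0 hours replicate 1 (0.67, adjusted p = 0.581) or VILI 6 hours replicate 3 (0.45, adjusted p = 0.558), and with only the 6 libraries compared (adjusted p = 0.802). The ratio of Ccl6 to Ccl9 was 14.6 to 20.4 in controls, 10.8 to 15.0 at VILI 0 hours and 9.81, 6.78 and 3.06 at VILI 6 hours, below every control in each VILI 6 hours library.

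Markers of the cells in which Ccl6 and Ccl9 are commonly found moved in part with them. Besides the neutrophil markers, alveolar macrophage markers summed to 165.1 to 184.9 FPKM in controls, 202.0 to 234.9 FPKM at VILI 0 hours and 156.2 to 161.4 FPKM at VILI 6 hours, with 4 of 7 called higher at VILI 0 hours and 1 of 7, Car4, called lower at VILI 6 hours. Car4, also a gene of capillary endothelium, was the largest part of this sum, with a mean of 74.3 FPKM in controls. Between the times 3 of these 7 markers were called lower and 0 higher, where 4.94% of all genes were called lower and Ccl9 was called higher. Interstitial macrophage markers summed to 133.1 to 159.8 FPKM in controls, 167.0 to 250.4 FPKM at VILI 0 hours and 154.6 to 389.3 FPKM at VILI 6 hours, with 1 of 7 called higher at VILI 0 hours and 3 of 7 at VILI 6 hours. Most of this sum was Lyve1, also a gene of lymphatic endothelium, with means of 91.5, 156.1 and 181.5 FPKM in the 3 groups and no call, whereas C1qa had means of 19.9, 21.5 and 26.8 FPKM. None of these 14 macrophage markers was at 0 in any library. Their part in the Ccl6 and Ccl9 values was not tested.

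The receptor of Ccl6 and Ccl9, Ccr1, was the CC receptor with the largest rise among those tested, and it is also expressed by neutrophils. It was at 2.78, 2.68 and 2.42 FPKM in controls, 9.08, 21.2 and 15.6 FPKM at VILI 0 hours and 8.77, 15.9 and 25.6 FPKM at VILI 6 hours. No VILI library overlapped control, and the log2 fold change was 2.42 (SE 0.38, adjusted p = 0.0441) at VILI 0 hours and 2.50 (SE 0.38, adjusted p = 0.0274) at VILI 6 hours. Both calls held in 18 of 18 alternatives, where the adjusted p ran from 0.00308 to 0.208 and from 0.00103 to 0.151. Between the times it was 0.08 (SE 0.38, adjusted p = 0.962, not called), and it turned to -0.25 without VILI 0 hours replicate 1 and to -0.29 without VILI 6 hours replicate 3. The 6 VILI libraries had the same order by Ccr1 and by the neutrophil sum, from VILI 6 hours replicate 3 (25.6 and 1915 FPKM) down to VILI 6 hours replicate 1 (8.77 and 453.5 FPKM), and the part of neutrophil number in the Ccr1 values was not tested.

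Ccl3 and Ccl4, made by activated macrophages, natural killer cells and T cells, were not called in any comparison, and their VILI 6 hours means rested on 1 library. Ccl3 was at 0.449, 0.436 and 1.04 FPKM in controls, 0.841, 1.22 and 0.435 FPKM at VILI 0 hours and 1.25, 0.406 and 22.5 FPKM at VILI 6 hours. Ccl4 was at 1.15, 1.21 and 0.831 FPKM in controls, 1.16, 1.11 and 1.13 FPKM at VILI 0 hours and 0.569, 0.496 and 16.9 FPKM at VILI 6 hours. In both genes VILI 6 hours replicate 3 was far above the other 8 libraries, and replicates 1 and 2 of Ccl4 were below them. The log2 fold change against control was 1.85 (SE 1.14, adjusted p = 0.371) for Ccl3 and 0.72 (SE 1.05, adjusted p = 0.713) for Ccl4 at VILI 6 hours. Without replicate 3, that of Ccl3 was 0.26 and that of Ccl4 turned to -0.87 (adjusted p = 0.184, called), or -0.97 (adjusted p = 0.302, called) against VILI 0 hours. Without VILI 6 hours replicate 2, that of Ccl3 was 3.00 (adjusted p = 0.247, called). VILI 0 hours against control gave 0.33 for Ccl3 (adjusted p = 0.916) and 0.10 for Ccl4 (adjusted p = 0.974).

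An assembled locus without a gene name overlaps Ccl3 on the opposite strand (chr11:83648542-83649503) and had 0 to 0.486 FPKM. The methods of the study name a directional library kit, whereas the labels name a different kit. It is thus not settled whether the libraries kept strand, and reads of Ccl3 and of this locus may not have been told apart.

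Ccl5, abundant in T and natural killer cells, was the second most abundant ligand in control and split the VILI 6 hours libraries. It was at 21.2, 18.7 and 20.6 FPKM in controls, 32.4, 20.02 and 18.3 FPKM at VILI 0 hours and 5.53, 10.8 and 38.9 FPKM at VILI 6 hours. Replicates 1 and 2 at VILI 6 hours were the lowest of the 9 libraries and replicate 3 was the highest. The log2 fold change at VILI 6 hours against control was -0.60 (SE 0.57, adjusted p = 0.558) and was not called. It was 0.02 (adjusted p = 0.977) without VILI 6 hours replicate 1 and -1.37 (adjusted p = 0.123, called) without replicate 3. Between the times it was -0.78 (SE 0.57, adjusted p = 0.688), or -1.55 (adjusted p = 0.228, called) without replicate 3 and -0.16 without replicate 1.

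The summed level of T and natural killer cell genes was also highest in VILI 6 hours replicate 3, as were 7 of the 8 single genes in that group. The 8 markers summed to 45.7 to 54.3 FPKM in controls, 36.2 to 56.4 FPKM at VILI 0 hours and 23.9, 31.96 and 88.0 FPKM at VILI 6 hours, and none was at 0 in any library. In VILI 6 hours replicate 3, Gzma and Nkg7, products of cytotoxic cells, were at 45.0 and 13.5 FPKM against 5.49 and 2.32 FPKM in replicate 1. The T cell receptor genes Cd3e and Cd3g were at 6.88 and 4.95 FPKM in replicate 3 against 1.94 and 2.11 FPKM in replicate 1, and Cd3d, the exception, was highest in replicate 2 (1.06, 2.85 and 2.56 FPKM). Gzma was the largest part of the sum in replicate 3. In that library Gzma, Nkg7, Klrb1c and Cd3e lay above every control. Cd2, Ncr1 and, barely, Cd3g lay below every control there, and Cd3d lay within the control range. Of the 8 markers, 0 were called higher and 2 lower at VILI 6 hours against control. Their part in the Ccl5, Ccl3 and Ccl4 values was not tested.

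Ccl17, made by dendritic cells and macrophages, was called higher at VILI 6 hours. It was at 5.14, 4.40 and 5.20 FPKM in controls, 6.40, 5.40 and 5.59 FPKM at VILI 0 hours and 7.03, 6.84 and 30.5 FPKM at VILI 6 hours. The groups did not overlap in any comparison, with a small step at VILI 0 hours and, at VILI 6 hours, replicates 1 and 2 a little above the highest VILI 0 hours library. At VILI 6 hours against control the log2 fold change was 1.20 (SE 0.48, adjusted p = 0.206, called). This call was lost without any 1 control (1.12 to 1.24), and without VILI 6 hours replicate 3 the value was 0.49 (adjusted p = 0.186, called). VILI 0 hours against control gave 0.24 (SE 0.48, adjusted p = 0.849). Between the times it was 0.96 (SE 0.48, adjusted p = 0.538), which was called only without VILI 6 hours replicate 1 (1.31, adjusted p = 0.161) or replicate 2 (1.33, adjusted p = 0.448) and was 0.26 without replicate 3. Dendritic cell markers summed to 23.9 to 29.1 FPKM in controls, 16.8 to 25.4 FPKM at VILI 0 hours and 19.8 to 23.4 FPKM at VILI 6 hours, with none at 0 in any library. Zbtb46 and Fscn1 were the largest parts of this sum in controls, with means of 12.6 and 6.84 FPKM against 0.931 to 3.04 FPKM for the others. Of these 6 markers, 0 were called higher at either time, 2 were called lower at VILI 0 hours and 1 at VILI 6 hours. In VILI 6 hours replicate 3, the highest Ccl17 library, the sum was 23.4 FPKM, the highest of its group and below every control, and the part of dendritic cell number in the Ccl17 values was not tested. Ccr4, the receptor of Ccl17, was at 0.207 to 0.247 FPKM in controls, 0.055 to 0.245 FPKM at VILI 0 hours and 0.0529 to 0.177 FPKM at VILI 6 hours, and changed by a log2 fold of -0.36 (adjusted p = 0.706) and -0.58 (adjusted p = 0.432) against control, neither called.

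By level, Ccl6 led in every group, and the order below it changed. In controls the mean was 51.7 ± 5.30 FPKM (SD, n = 3) for Ccl6, 20.2 ± 1.31 for Ccl5, 12.3 ± 1.18 for Ccr2, 4.91 ± 0.447 for Ccl17 and 2.84 ± 0.263 for Ccl9, each range clear of the next. Ccl4, Ccl2, Ccl7 and Ccl3 followed at 1.06 to 0.640 FPKM and overlapped their neighbours. Ccl6 was at 90.2 ± 14.1 FPKM at VILI 0 hours, where Ccl5 overlapped Ccr2, Ccr2 overlapped Ccl9 and Ccl9 overlapped Ccl17, which lay clear of Ccl4. At VILI 6 hours Ccl6 was at 77.9 ± 15.7 FPKM, and the 8 genes below it, from Ccr2 at 25.8 ± 8.36 FPKM to Ccl7 at 4.95 ± 4.51 FPKM, overlapped each neighbour in the order.

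The summed level of the 8 ligands was 78.7, 82.2 and 87.5 FPKM in controls, 120.6, 132.6 and 135.2 FPKM at VILI 0 hours and 122.3, 101.1 and 231.3 FPKM at VILI 6 hours. Every VILI library lay above control. Ccl6 made up 58.2% to 64.6% of the sum in controls, 61.7% to 75.3% at VILI 0 hours and 77.6%, 63.3% and 32.3% at VILI 6 hours. Without Ccl6 the sum was 29.1 to 32.9 FPKM in controls, 33.5 to 46.2 FPKM at VILI 0 hours and 27.5, 37.1 and 156.6 FPKM at VILI 6 hours. The ligand mixture of VILI 6 hours replicate 3 thus differed from that of its group: Ccl3 and Ccl4 held 9.72% and 7.29% of the sum there and at most 1.03% and 0.491% in replicates 1 and 2.

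**Figure D3:**
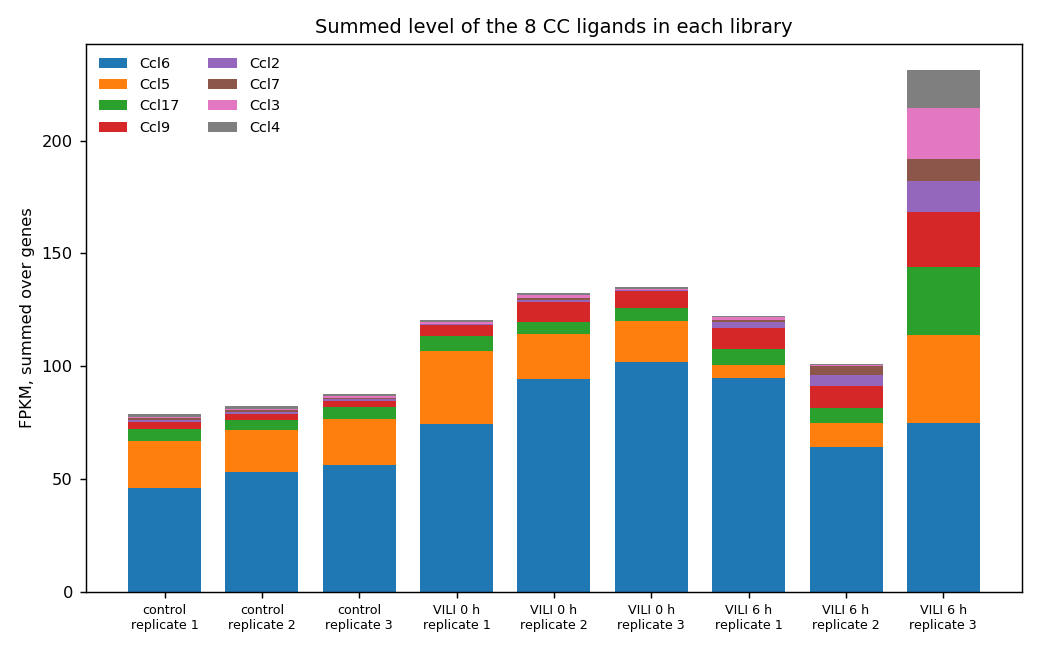
Summed FPKM of the 8 CC ligands in each library (vertical axis from 0), stacked by gene. The VILI libraries lie at 101.1 FPKM or above and the controls at 87.5 FPKM or below, and Ccl6 is the largest share in every bar.

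Beyond the 9 genes, 26 others were examined, namely the fractalkine and CSF1 axis (Cx3cl1, Cx3cr1, Csf1 and Csf1r) and for the rest other genes of the CC system. Of the 26, 23 were tested and Ccl1, Ccr3 and Ccr10 were under the mean of 0.1 FPKM. Of those tested, 2 were called higher and 3 lower than control at VILI 0 hours, at VILI 6 hours 2 higher and 2 lower, and between the times 2 higher and 0 lower, where of all genes 6.81% and 9.35%, 8.17% and 12.2%, and 5.06% and 4.94% were called. Their median log2 fold changes were -0.28, -0.19 and 0.09, beside -0.07, -0.09 and -0.02 for all genes. Of 9 other ligands tested, 0 were called higher than control at either time. Of the 7 other receptors tested, Ccr1 alone was called against control.

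The scavenging receptors moved apart. Ackr2, which takes up and degrades inflammatory CC chemokines such as Ccl2, Ccl3 and Ccl5, was at 3.00, 4.46 and 3.30 FPKM in controls, 7.26, 6.48 and 5.87 FPKM at VILI 0 hours and 4.60, 10.1 and 9.21 FPKM at VILI 6 hours. It was called higher at both times, by a log2 fold change of 0.86 (SE 0.28, adjusted p = 0.188) and 1.07 (SE 0.28, adjusted p = 0.105). The call at VILI 0 hours was lost with only the row of the highest mean in place of the sum of rows (0.50, adjusted p = 0.413). Ackr4, which takes up the lymphoid chemokines Ccl19, Ccl21 and Ccl25, was at 5.65, 5.48 and 6.58 FPKM in controls, 1.31, 1.70 and 0.819 FPKM at VILI 0 hours and 2.82, 0.645 and 0.223 FPKM at VILI 6 hours. It fell by 2.18 (SE 0.65, adjusted p = 0.157) and by 2.75 (SE 0.65, adjusted p = 0.0853) on the log2 scale. No VILI library of either gene overlapped control. Ackr1, an endothelial and red cell receptor that binds chemokines, was at 0.138 to 0.500 FPKM and was not called.

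Ccl20, which draws cells bearing Ccr6, had a called rise between the times of 4.01 (SE 1.69, adjusted p = 0.474) that rested on 1 library. It was at 0.153, 0.101 and 0.0974 FPKM at VILI 0 hours and 1.88, 0.139 and 87.7 FPKM at VILI 6 hours, and the rise was 1.67 (adjusted p = 0.579) without VILI 6 hours replicate 3. The call held in 6 of 18 alternatives and was also lost without control replicate 1 or 3 or any 1 VILI 0 hours library, where the value was 3.94 to 4.12. Csf1, the growth factor of monocytes and macrophages, fell by 0.55 (SE 0.23, adjusted p = 0.279) at VILI 0 hours, a call that held in 9 of 18 alternatives. It was lost without any 1 control or without VILI 0 hours replicate 1 or 3, where the value was -0.39 to -0.60. Cx3cl1, the ligand of Cx3cr1 on non-classical monocytes, fell by 0.58 (SE 0.21, adjusted p = 0.179) at VILI 6 hours, with groups that overlapped. This call was lost without control replicate 1 or 3 or VILI 6 hours replicate 2 or 3, where the value was -0.39 to -0.54.

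**Figure D4:**
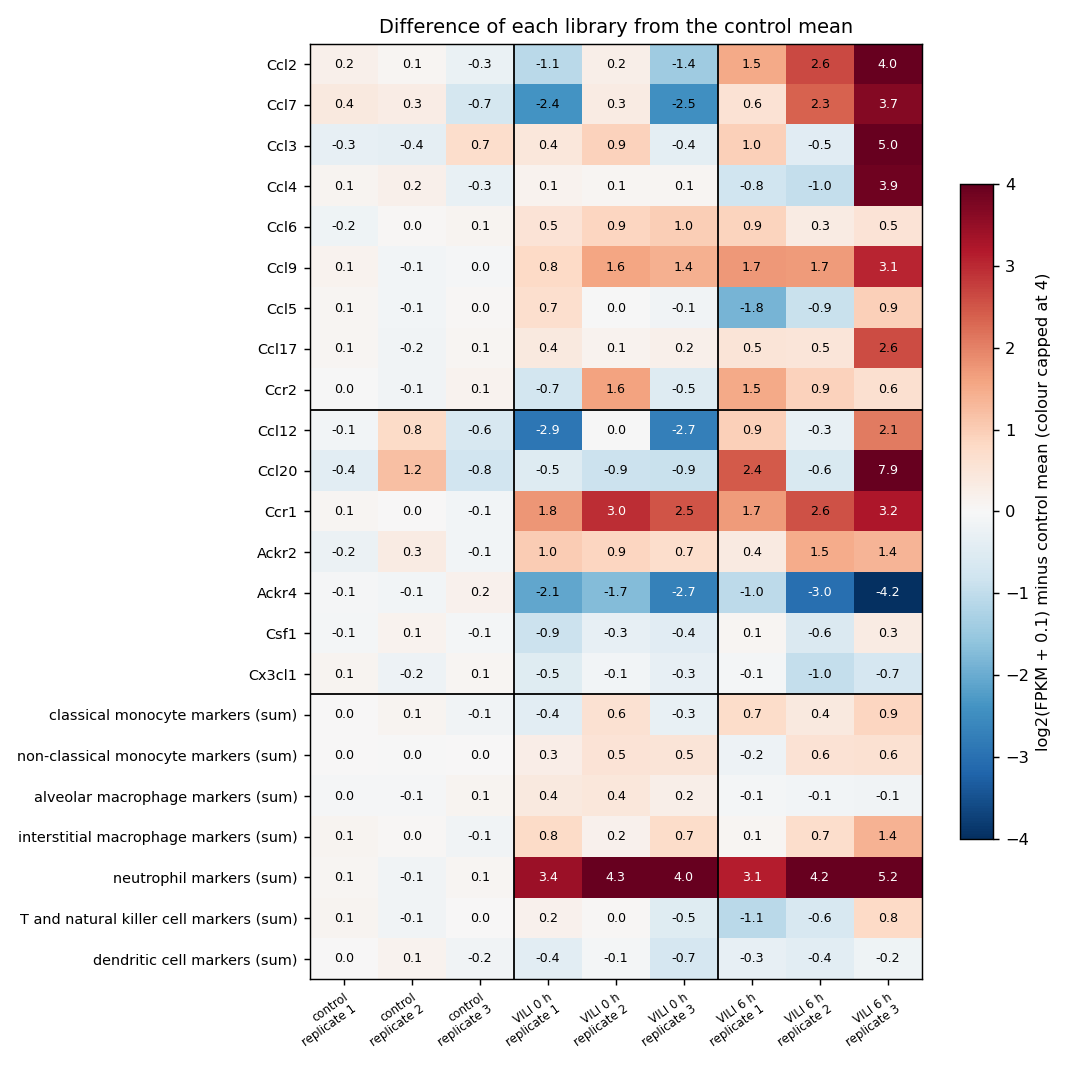
log2(FPKM + 0.1) of each library minus the control mean, for the 9 genes (top), other CC genes named in the text (middle) and summed cell type markers (bottom), with 3 libraries a group in columns. VILI 0 hours replicate 2 differs from replicates 1 and 3 in Ccl2, Ccl7, Ccl12 and Ccr2, and VILI 6 hours replicate 3 has the largest values in 7 of the top 9 rows.

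Of the 9 genes, 5 had an SD of at least 1 on the log2 scale over the 9 libraries, and for these the nearest profiles were sought among 13974 other annotated genes with a mean of at least 1 FPKM. Nearness is the root mean square difference of the log2 profiles, each centred on its own mean. Ccl2 was nearest to Timp1, an inhibitor of matrix proteases (0.698), Ptx3, a soluble pattern recognition protein (0.743), and Steap4, a metalloreductase (0.806). Ccl7 was nearest to the neutrophil chemokine Cxcl1 (0.845), Ptx3 (0.896) and Ccl12 (0.937). Ccl3 was nearest to the cytokine genes Tnf (0.589) and Il1a (0.711) and to the cytotoxic protease Gzmb (0.782). Ccl4 was nearest to Gzmb (0.291), to the amino acid oxidase Il4i1 (0.601) and to Tnfaip3, an inhibitor of NF-kappaB signalling (0.607). Ccl9 was nearest to Gm14548 (0.256), to Tlr13, a sensor of bacterial RNA (0.279), and to Gm49339 (0.302). Gzmb had 21.02 FPKM in VILI 6 hours replicate 3 and 0.989 and 1.02 FPKM in replicates 1 and 2, the same split as Ccl4. All these profiles share the 9 libraries and so the height of VILI 6 hours replicate 3.

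Assembled loci without a gene name lay upstream of Ccl6 on the same strand. That at chr11:83594572-83596441, 1485 bases from Ccl6, had 0.0636 to 0.418 FPKM in controls, 0.333 to 0.848 FPKM at VILI 0 hours and 0.350 to 0.573 FPKM at VILI 6 hours. Its groups overlapped. Another, at chr11:83601215-83604820 and 8128 bases from Ccl6, had 0.0476 to 0.237 FPKM in controls, 0.198 to 0.512 FPKM at VILI 0 hours and 0.249 to 0.670 FPKM at VILI 6 hours, where each library lay above the controls and replicate 1 only a little.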

How the data were processed

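The authors removed reads with adapters, poly-N or low quality, aligned the rest with TopHat2 2.0.9 (Bowtie2 2.0.6, GRCm38, per the submitters' processing notes), assembled transcripts with Scripture and Cufflinks and deposited FPKM from Cuffdiff 2.1.1 for 60108 rows. Column sums were 366400 to 388500 FPKM. The study lists the reads of each library, but the table gives no counts per gene, so the depth behind single values is unknown and precision comes from the 3 replicates alone, each 1 mouse. The labels and the methods name different library kits and sequencers.

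Groups came from the sample records. Gene IDs were named by GENCODE M21 (23580 of 23713 Ensembl IDs, beside 3490 assembled loci), and FPKM were summed per gene. A linear model with a trended eBayes prior (limma 3.58.1, R 4.3.3) was fitted to log2(FPKM + 0.1) of the 19378 genes with a mean of at least 0.1 FPKM, with group as the only factor, and was tested on simulated data. Named were the 9 members, called genes of the fixed CC family lists, Ccr1 and Ccr4, the marker lists and the 3 nearest profiles of members with an SD of at least 1. Gzmb, Gzma, Nkg7, Cd3d, Cd3e, Cd3g, Cd2, Ncr1, Klrb1c, Pglyrp1, F13a1, Vcan, Ly6c2, Plac8, Lyve1, C1qa, Ace, Eno3, Car4, Fn1, Zbtb46 and Fscn1 are singled out after their values were seen. The members and lists were chosen with earlier results of these data known, and genes of the lists that are not reported here were left out of their counts and sums. Motifs and promoters were searched in Python 3.11.15. Alternatives were pseudocounts of 0.01 and 1, a replicate block, each library left out, only the 6 libraries compared, a mean of at least 1 FPKM or no filter, the row with the highest mean, eBayes without a trend, and libraries centred on their medians.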

Additional observations from a re-analysis of the deposited data

Results flagged for a closer look

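The change against control at VILI 6 hours differed from that at VILI 0 hours for 3 of the 9 genes at an unadjusted P under 0.05, by the limma test of the difference itself. This is the comparison between the times given above and not a further test. In it 10% of all genes were called, 5.06% higher and 4.94% lower, and 0 passed after adjustment. On the log2 scale the change at VILI 6 hours minus that at VILI 0 hours was 3.48 for Ccl2 (adjusted p = 0.144), 3.70 for Ccl7 (adjusted p = 0.252) and 0.90 for Ccl9 (adjusted p = 0.443). All 3 VILI 6 hours libraries lay above all 3 VILI 0 hours libraries in each gene, as in 6.25% of all genes. Ccl2 and Ccl7 kept this call with any 1 library left out, at 2.84 to 4.08 and 2.96 to 4.62, and with a pseudocount of 1 FPKM, at 2.22 and 1.91, and Ccl9 lost it when replicate 1 of VILI 0 hours (0.67) or replicate 3 of VILI 6 hours (0.45) was left out.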

How the results depend on the processing

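With 3 libraries a group the calls moved mostly with single libraries. Of the 9 genes, 2, 5 and 3 were called at VILI 0 hours, at VILI 6 hours and between the times. Leaving out a library gave 2 to 4 (4 without VILI 0 hours replicate 2), 3 to 6 (3 without any 1 control) and 2 to 5 (5 without VILI 6 hours replicate 1 or 2). After adjustment the counts were 0, 1 and 0, and leaving out a library gave 0 to 1, 0 to 4 and 0 to 2, the highest of each without VILI 6 hours replicate 1, and for VILI 0 hours also without VILI 6 hours replicate 3. With only the 6 libraries compared, 2 passed at VILI 0 hours. The shares of all genes called in the alternatives were not counted. Whether such moves belong to the 9 genes or to all genes is therefore not known. Ccl9, the 1 gene that passed at VILI 6 hours, left 0 with no filter, only the 6 libraries compared, the replicate block, eBayes without a trend or the row with the highest mean. Same-numbered libraries did not deviate together (r of deviations -0.221 to 0.017 over 9 pairs, 1 of 9 libraries nearest to its own number). With 3 libraries a group this check cannot exclude a pairing by number. With the replicate block 2, 5 and 3 of the 9 genes were called and 0, 0 and 0 passed after adjustment.

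Over the single genes and alternatives, 830 values kept direction and call, 50 lost the call, 19 gained it in the same direction and 16 turned direction. Those that turned had no call with all libraries, and 3 of them were called when turned, Ccr2 without VILI 0 hours replicate 2 and Ccl4 in both comparisons of VILI 6 hours without its replicate 3. At VILI 0 hours leaving out a library gave -0.054 to 0.19 for Ccl4, -0.074 to 0.34 for Ccl5 and -0.63 to 0.54 for Ccr2, and Ccl20 was 0.16 with the row of the highest mean. At VILI 6 hours it gave -0.87 to 1.55 for Ccl4, -1.37 to 0.023 for Ccl5 and -0.25 to 0.20 for Csf1, which was 0.067 with median-centred libraries. Between the times it gave -0.074 to 2.67 for Ccl3, -0.97 to 1.45 for Ccl4, -0.29 to 0.48 for Ccr1, -0.57 to 0.036 for Ccr4 and -1.44 to 0.15 for Ackr4. Ccl7 at VILI 6 hours lost its call with a pseudocount of 0.01 (2.33, adjusted p = 0.276), Ccl17 with only the 6 libraries compared (adjusted p = 0.306), and Ccr2 gained one with median-centred libraries (1.15, adjusted p = 0.236) or only the 6 libraries compared (adjusted p = 0.124). The cause of these changes was not tested.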
